A study of Mus musculus with 6 samples.

Results

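The AP-2 family is a group of 5 mouse genes, Tfap2a, Tfap2b, Tfap2c, Tfap2d and Tfap2e, which encode the transcription factors AP-2 alpha, beta, gamma, delta and epsilon. They were looked up by symbol among the 49315 genes counted in 6 lines of mouse embryo fibroblasts, and 5 of 5 were found. The family was chosen by the difference measured between the genotypes compared here, so its own values in that comparison are given as a description, with no test. MDMX (gene Mdm4) is an inhibitor of p53 that also binds the kinase CK1-alpha, and the study compared transcripts in cells whose MDMX no longer makes that contact. All 6 lines were C57BL/6, p53-/-, at passage 4, untreated, and grown in DMEM with 10% FBS. The mutant lines SG1, SG2 and SG3 were MDMXSG/SG, homozygous for a knock-in with the substitutions W201S and W202G, and the control lines WT3, WT9 and WT11 were MDMXWT/WT. Each line was derived from 1 embryo, so n = 3 embryos per genotype. The absence of p53 is common to both genotypes, and the sources used here do not give the litter, the day of culture or the sequencing run.

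AP-2 proteins bind GC-rich DNA as dimers, through a basic region and a helix-span-helix domain in their C-terminal part, and family members can pair with each other. In the embryo, Tfap2a and Tfap2b act in surface ectoderm, neural crest, face and limb. Tfap2b also acts in kidney tubules and sympathetic neurons, Tfap2c in trophoblast and germ cells, Tfap2d in midbrain neurons, and Tfap2e in olfactory bulb and skin. CITED and KCTD proteins are known to raise or restrain their activity, and receptor and keratin genes are among the targets described for them.

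The 5 genes are similar enough that the specificity of the counts bears on every value below. A stretch of set length, 25 codons (75 bases), was taken where the residues of the other members match Tfap2b best without a gap. It is shown for the coding strand, as read by a script from the GENCODE M21 transcripts (GRCm38), with bases that differ from Tfap2b in capitals:
Tfap2b: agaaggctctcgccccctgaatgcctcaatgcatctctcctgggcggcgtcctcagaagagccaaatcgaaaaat
Tfap2a: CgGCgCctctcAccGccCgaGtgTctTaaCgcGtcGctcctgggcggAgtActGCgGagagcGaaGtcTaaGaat
Tfap2c: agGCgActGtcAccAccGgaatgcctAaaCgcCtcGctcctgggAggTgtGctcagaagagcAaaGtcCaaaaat
Tfap2d: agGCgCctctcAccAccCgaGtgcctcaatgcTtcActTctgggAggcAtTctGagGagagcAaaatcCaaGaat
Tfap2e: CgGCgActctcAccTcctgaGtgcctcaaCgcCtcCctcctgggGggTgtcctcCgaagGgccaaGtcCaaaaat
The lines cover coding bases 763 to 837 of Tfap2b, 793 to 867 of Tfap2a, 934 to 1008 of Tfap2c, 706 to 780 of Tfap2d and 727 to 801 of Tfap2e. Against Tfap2b, 22 bases differed in Tfap2a, 17 in Tfap2c, 18 in Tfap2d and 16 in Tfap2e. These differences changed 0 of the 25 encoded residues in Tfap2a, Tfap2c and Tfap2e and 1 in Tfap2d. The proteins translated from these transcripts were 74.1% identical between Tfap2a and Tfap2b over 440 aligned residues, the highest of the 10 pairs, and 51.8% between Tfap2c and Tfap2d, the lowest. The longest run that the coding sequences of Tfap2a and Tfap2b had in common was acggccctgcagaactatctcaccgaggc (29 bases, Tfap2a bases 1273 to 1301, Tfap2b bases 1243 to 1271). Between any 2 members, 0 words of 50 bases were shared by their transcripts.

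Tfap2a and Tfap2b were the AP-2 genes with reads in all 6 lines, and both were lower in the mutant lines. The difference in Tfap2b was 14.1-fold and that in Tfap2a 1.86-fold, in CPM (reads of a gene over the library's total, on a common scale, with TMM scaling). Tfap2c and Tfap2e had at most 6 reads in a line and Tfap2d had 0 in every line. The genome build of the files is GRCm38, and their own gene bounds are used for the positions below.

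Tfap2b, which encodes AP-2 beta (ENSMUSG00000025927, chromosome 1, 19208914 to 19238576, plus strand), was counted over 8 exon blocks with a summed length of 6338 bases. Its reads numbered 522, 344 and 518 in WT3, WT9 and WT11, and 68, 17 and 15 in SG1, SG2 and SG3. In CPM these were 10.4, 5.26 and 8.63 in the WT lines and 1.23, 0.266 and 0.257 in the SG lines. The genotypes did not overlap, and the lowest WT line was 4.27 times the highest SG line. The means were 8.11 ± 2.63 CPM in WT and 0.585 ± 0.56 CPM in SG (SD, n = 3), and the log2 fold change, SG minus WT, was -3.81 with a standard error (SE) of 0.55. This was the largest fall among the 16068 genes tested. The mutant lines were unequal among themselves, with SG1 4.8 times SG3, while WT3 was 1.99 times WT9. SG1 and WT9 were thus the lines of their genotype nearest to the other genotype. Without SG1 the log2 fold change was -4.94, and without both SG1 and WT9 it was -5.17. In bulk RNA, fewer cells with a transcript and less of it per cell cannot be told apart, here and in each difference below.

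Tfap2a, which encodes AP-2 alpha (ENSMUSG00000021359, chromosome 13, 40715675 to 40733823, minus strand), was counted over 8 exon blocks of 3243 bases in all. It had 276, 451 and 312 reads in WT3, WT9 and WT11, and 197, 173 and 188 reads in SG1, SG2 and SG3. In CPM these were 5.52, 6.89 and 5.2 in the WT lines against 3.57, 2.71 and 3.22 in the SG lines. Again the genotypes did not overlap, with the lowest WT line at 1.46 times the highest SG line. The means were 5.87 ± 0.901 CPM in the WT lines and 3.17 ± 0.432 CPM in the SG lines (SD, n = 3), and the log2 fold change was -0.89 (SE 0.15). The coefficient of variation of Tfap2a was 15.4% over the WT lines and 13.6% over the SG lines, against 32.4% and 95.8% for Tfap2b. The line with the most Tfap2a, WT9, was the WT line with the least Tfap2b. Tfap2a shares 111 exon bases with the antisense gene Gm26688, which had 0 to 5 reads in a line. Whether the counting used strand is not given in the sources used here, and reads of that stretch could belong to either gene.

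By the files' counts, 2 of the 5 members passed the filter on low counts, which asks for 0.168 CPM (10 reads in the median library) in enough lines. Tfap2a and Tfap2b stood above that level in 3 of 3 lines of each genotype, so neither passed through 1 genotype alone. Both differed at an adjusted p under 0.05 (edgeR quasi-likelihood test, Benjamini-Hochberg), as did 1.90% of all genes tested: 0.809% were higher and 1.10% lower in SG. Every SG line lay below every WT line for both members, and for 11.2% of all genes tested. Since the family was chosen on this contrast, nothing is read from those counts of members.

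**Figure D1:**
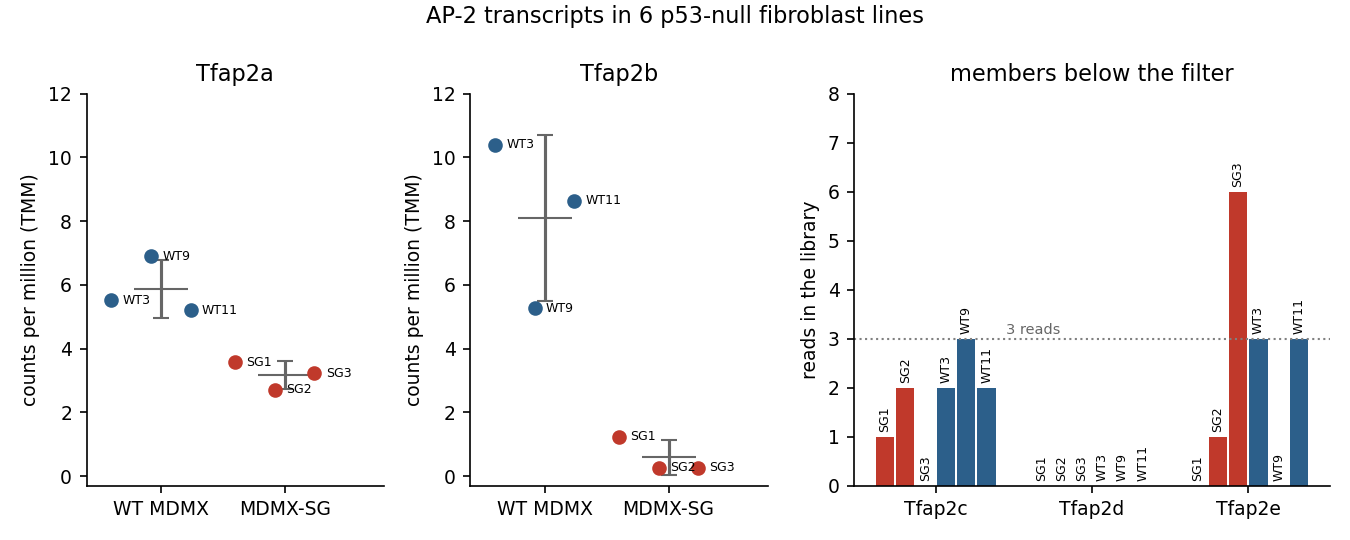
AP-2 transcripts in each line. The left and middle panels plot TMM-scaled CPM of Tfap2a and Tfap2b on a common axis (points: lines, horizontal bar: mean, whiskers: SD, n = 3), and the right panel plots reads of the other members, with a dotted line at 3 reads. For both Tfap2a and Tfap2b the 3 WT lines lie above the 3 SG lines, and SG1 has the most Tfap2b among the SG lines.

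The other members were at the limit of detection in both genotypes. A count of 0 allows up to 3 reads, which is 0.0459 to 0.06 CPM in these libraries, for counting error alone. Tfap2c (AP-2 gamma, ENSMUSG00000028640, chromosome 2, 172549593 to 172558622, plus strand) had 1, 2 and 0 reads in the lines SG1 to SG3, against 2, 3 and 2 reads in WT3, WT9 and WT11. Every line was at or below 3 reads, so a difference in Tfap2c was not detectable at this depth. Tfap2e (AP-2 epsilon, ENSMUSG00000042477, chromosome 4, 126716006 to 126736240, minus strand) had 0, 1 and 6 reads in the SG lines and 3, 0 and 3 in the WT lines. Its genotypes overlapped, with 7 reads in SG and 6 in WT in all. Tfap2d (AP-2 delta, ENSMUSG00000042596, chromosome 1, 19103022 to 19166346, plus strand) had 0 reads in 6 of 6 lines. Tfap2d ends 42.6 kb before Tfap2b starts, on the same strand, so the neighbour of the member with the largest difference was not detected in either genotype. Of the 10 other genes within 500 kb of Tfap2b, 0 passed the filter and 5 had any read, with a maximum of 11 reads in a line (Gm10075, a processed pseudogene antisense to Tfap2d that shares 0 exon bases with it).

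Levels can be compared between members only per length, as RPKM (CPM per kilobase of the gene's exons). On that scale Tfap2a and Tfap2b were close in WT3, at 1.7 and 1.65 RPKM, and in WT11, at 1.6 and 1.36 RPKM, while WT9 had 2.13 of Tfap2a and 0.83 of Tfap2b. In the SG lines Tfap2a was at 1.1, 0.836 and 0.992 RPKM and Tfap2b at 0.194, 0.042 and 0.0405 RPKM in SG1, SG2 and SG3. The ratio of Tfap2a to Tfap2b was therefore 1.03 to 2.56 in the WT lines and 5.66 to 24.5 in the SG lines. Summed over the family, the level was 3.12 ± 0.236 RPKM in WT and 1.09 ± 0.203 RPKM in SG (SD, n = 3). Tfap2b made up 48.6%, 28.0% and 45.4% of that sum in WT3, WT9 and WT11, and 15.0%, 4.7% and 3.7% in SG1, SG2 and SG3. The parts of Tfap2a and Tfap2b were about equal in WT3 and WT11. Tfap2a made up most of the sum in WT9 (71.6%) and more in every SG line (84.7% to 93.5%). Among the genes tested, both were in the lower part of the range. Tfap2a stood at percentile 37.3 to 40.8 by RPKM in the WT lines and 29.6 to 32.2 in the SG lines, and Tfap2b at 29.2 to 37.2 and 1.8 to 12.5.

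**Figure D2:**
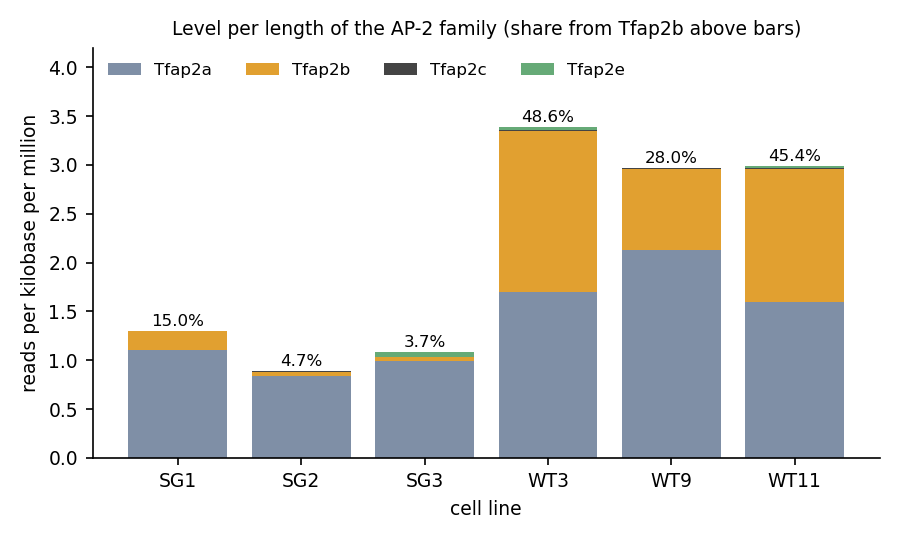
Summed level of the AP-2 genes per line, in RPKM, stacked by member, with the percentage from Tfap2b above each bar. The WT bars reach 2.97 to 3.39 and the SG bars 0.894 to 1.3, and the Tfap2b part is 28.0% to 48.6% of the WT bars and 3.7% to 15.0% of the SG bars.

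Among genes for proteins that work with AP-2, no change passed the threshold. The list of 16 cofactors and regulators holds coactivators, KCTD repressors, a SUMO-conjugating enzyme and other binding partners, and 15 of them were tested. Of these, 0 passed the threshold by edgeR in either direction, 1 had an unadjusted p under 0.05, and 0 passed with DESeq2. Their log2 fold changes ran from -0.12 to 0.18 with a median of -0.00, against a median of 0.00 over all genes tested. DESeq2 called 948 of the 16068 genes tested. The share of all genes with an unadjusted p under 0.05 is not given, here or for the lists below. Cited2, a coactivator that links AP-2 to the acetyltransferases p300 and CBP, was at 163 ± 6.74 CPM in the SG lines and 146 ± 15.3 CPM in the WT lines (log2 fold change 0.15, adjusted p = 0.39). Npm1, a nucleolar chaperone that can bind AP-2 alpha, was at 1710 ± 51.4 and 1850 ± 146 CPM (log2 fold change -0.11, adjusted p = 0.437). Kctd1 and Kctd15, which restrain AP-2 alpha, had log2 fold changes of 0.11 and 0.15 with adjusted p = 0.711 and 0.454. Ep300 (p300) and Crebbp (CBP) themselves had log2 fold changes of 0.07 and 0.18 with adjusted p = 0.43 and 0.183. Cited4 had at most 7 reads in a line and was not tested.

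Genes described as AP-2 targets moved in the other direction where they passed. Of 25 listed genes 23 were tested, 5 rose (against 0.809% of all genes tested) and 0 fell. The median log2 fold change was 0.18, with 17 above 0 and 6 below. The Tfap2b difference and those of the 5 genes thus ran in opposite directions, and a direction of regulation by AP-2 was not tested. The list was chosen with earlier results of these data known, so its count is no independent evidence.

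Hoxa2, a homeobox gene of hindbrain and neural crest, was at 1.28, 1.7 and 0.799 CPM in WT3, WT9 and WT11 and at 2.86, 3.42 and 3.8 CPM in SG1, SG2 and SG3. Its log2 fold change was 1.41 (SE 0.26, adjusted p = 0.0439), with no overlap between genotypes. Mmp2, which encodes a gelatinase of the extracellular matrix, was at 223, 255 and 286 CPM in the SG lines and 119, 175 and 142 CPM in the WT lines. Its difference was 0.81 on the log2 scale (SE 0.14, adjusted p = 0.0362). Egfr, the epidermal growth factor receptor, was at 104, 128 and 114 CPM against 70.5, 84.3 and 59.8 CPM, a difference of 0.69 on the log2 scale (SE 0.13, adjusted p = 0.0409). In each of these genes every SG line was above every WT line. They were named because they passed the threshold, and the share of all genes with that order is not given here. Igf1r, the receptor for insulin-like growth factor 1, differed least, at 217, 225 and 214 against 181, 194 and 181 CPM, which is 1.18-fold (adjusted p = 0.0378). Ret, a receptor tyrosine kinase of neural crest and kidney, was the fifth, at 3.31 ± 0.084 CPM in the SG lines and 1.63 ± 0.425 CPM in the WT lines (log2 fold change 1.02, adjusted p = 0.045). It stands outside the rule for named genes and was named after its values were seen.

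The count of 5 targets rested on few lines. It was 0 without SG2 and 0 without WT3, 1 without WT11 (Ccl2, lower) and 2 without SG3 (Krt14 and Krt5, higher). With DESeq2 it was 10 (7 higher, 3 lower), where 948 of all 16068 genes tested passed (430 higher, 518 lower). With a robust prior it was 3, without Egfr and Mmp2. Other described targets gave values short of the threshold in both directions. Erbb2, a receptor gene of breast cancer long studied as an AP-2 target, had a log2 fold change of 0.05 (adjusted p = 0.609), and Cdkn1a, an inhibitor of cyclin-dependent kinases, -0.09 (adjusted p = 0.713). Esr1, the estrogen receptor, had -1.28 (adjusted p = 0.076), Ccl2, a chemokine, -0.71 (adjusted p = 0.0521), and Igfbp5, a binding protein of insulin-like growth factors, -0.37 (adjusted p = 0.0799). Krt14, a keratin of basal skin cells, had 2.33 (SE 0.63, adjusted p = 0.122). Esr1, Ccl2, Igfbp5 and Krt14 were among the targets called by DESeq2.

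**Figure D3:**
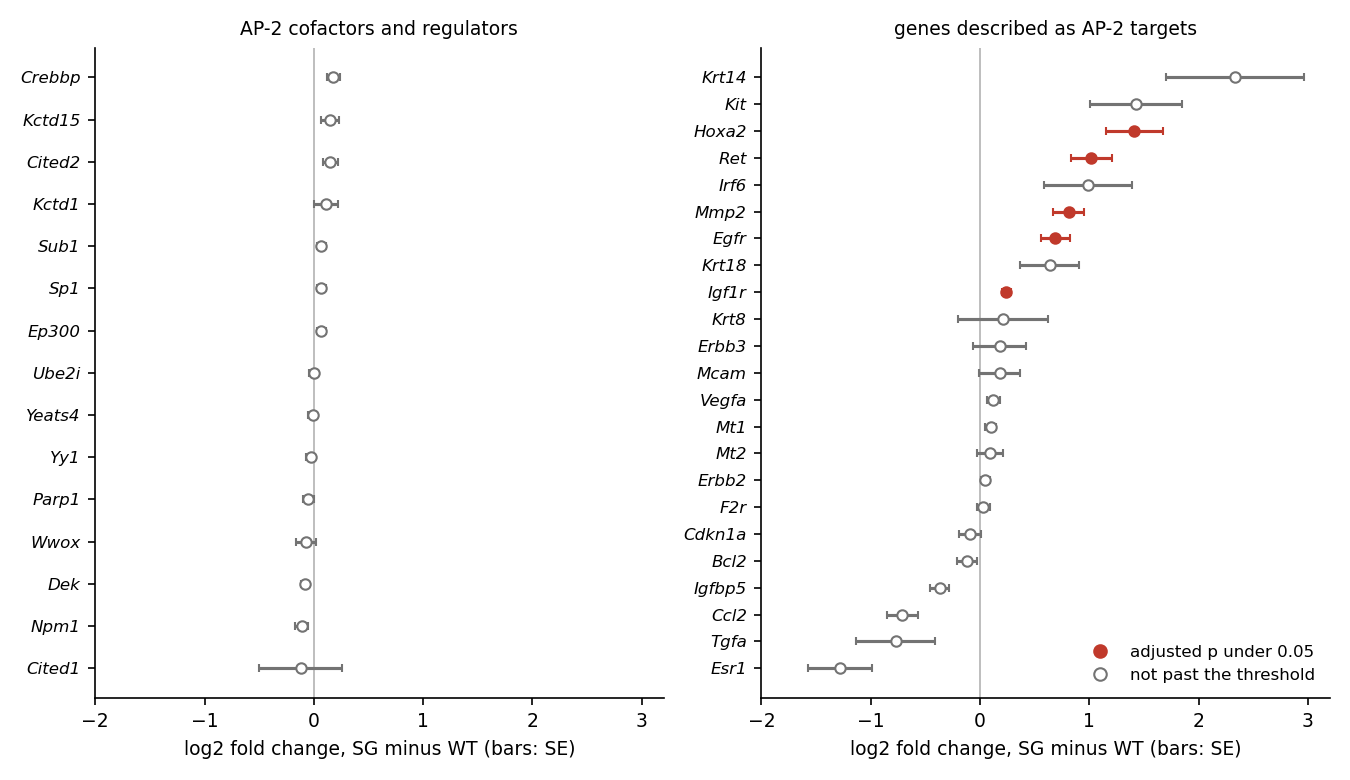
Log2 fold change of each tested cofactor (left, 15 genes) and each tested described target (right, 23 genes), SG minus WT, with bars of 1 SE on a common axis. Filled points mark adjusted p under 0.05. The cofactors lie between -0.12 and 0.18, and the 5 filled targets lie above 0.

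Among factors that act beside AP-2 in neural crest and at the neural border, the change that passed the threshold was a fall. Of 16 listed genes 14 were tested, 0 rose and 1 fell (against 1.10% of all genes tested), with a median log2 fold change of -0.22. The gene that fell was Msx1, a homeobox gene of crest, face and limb bud. It was at 4.72, 4.3 and 4.78 CPM in WT3, WT9 and WT11 and at 1.41, 0.58 and 0.428 CPM in SG1, SG2 and SG3, a 5.74-fold difference (log2 fold change -2.52, SE 0.37, adjusted p = 0.0241). As with Tfap2b, SG1 was the highest of the SG lines. The call was lost without SG2, WT3 or WT11. The count for this list was 5 with DESeq2, which called 948 of all 16068 genes tested. An unadjusted p under 0.05 was found in 7 members, with no share over all genes given here.

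Among 20 factors of face and limb mesenchyme, where Tfap2a and Tfap2b are active in the embryo, 18 were tested, 1 rose (against 0.809% of all genes tested) and 2 fell (against 1.10%), with a median log2 fold change of -0.19. With DESeq2, which called 948 of all 16068 genes tested, the count was 8. An unadjusted p under 0.05 was found in 10 members, with no share over all genes given here. Alx1, a homeobox gene of the midface, rose from 1.98, 2.87 and 3.25 CPM in WT3, WT9 and WT11 to 7.66, 12.7 and 13.4 CPM in SG1, SG2 and SG3 (log2 fold change 2.05, SE 0.25, adjusted p = 0.0155). Shox2, a homeobox gene of the proximal limb, fell from 26.6, 27.5 and 25.2 CPM to 18.2, 17.6 and 18.5 CPM (log2 fold change -0.54, SE 0.05, adjusted p = 0.00802). Prrx1, a homeobox gene of limb and head mesenchyme, fell from 434, 399 and 401 CPM to 289, 278 and 346 CPM (log2 fold change -0.43, SE 0.08, adjusted p = 0.0445). The groups did not overlap in any of the 3, which were named because they passed the threshold. Every SG line lay below every WT line for 11.2% of all genes tested, and the share above is not given here. Genes of the same developmental setting thus changed in both directions. The 3 calls were lost without SG2 and without WT3, those of Alx1 and Prrx1 without WT11, and that of Prrx1 also without SG1, without WT9, with upper quartile scaling and with a robust prior.

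The genes whose pattern over the 6 lines was most like that of Tfap2b were found by the root mean square difference of log2 CPM, each gene centred on its own mean, among 11693 genes. Since the pattern is the one that chose the family, they are a description. The nearest was Ahrr, which encodes a repressor acting on the aryl hydrocarbon receptor, at a difference of 0.69, where the median gene was at 2.15. Its levels were 12.1, 3.52 and 10.1 CPM in WT3, WT9 and WT11 and 1.58, 0.768 and 0.702 CPM in SG1, SG2 and SG3. Like Tfap2b, Ahrr had its lowest WT value in WT9 and its highest SG value in SG1. Xlr3b, on chromosome X, followed at 0.78, Msx1 also at 0.78, Lhx2, a LIM homeobox gene of limb bud and forebrain, at 0.80 and Tnn, which encodes the matrix protein tenascin-W, at 0.83. Lhx2 was at 7.66, 5.6 and 6.41 CPM in the WT lines and 1.99, 1.02 and 0.514 CPM in the SG lines. None of the 5 followed Tfap2b to its lowest values in SG2 and SG3, where each of them lay nearer its own mean. Tfap2b had the largest fall among the genes tested, so this follows largely from its rank and is no separate result.

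Tfap2a had closer matches, at smaller amplitude. Lrrtm1, a leucine-rich synaptic membrane protein gene, differed by 0.08, where the median gene was at 0.48. It was at 2.86, 3.36 and 2.56 CPM in WT3, WT9 and WT11 and at 1.7, 1.22 and 1.75 CPM in SG1, SG2 and SG3. Next came Hecw2, a ubiquitin ligase gene, at 0.11, Snap91, which acts in the coating of synaptic vesicles, at 0.14, Syt13, a synaptotagmin gene, at 0.15 and Lrrc15, a surface protein gene of fibroblasts, at 0.15. Lrrc15 was the most abundant of them, at 215, 231 and 208 CPM in the WT lines and 154, 107 and 103 CPM in the SG lines. The 2 members shared 0 of their 5 nearest genes. The measure depends on amplitude, and Tfap2b fell far more than Tfap2a, so genes near Tfap2a lie far from Tfap2b. The lack of a shared gene follows from this and is no separate result.

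**Figure D4:**
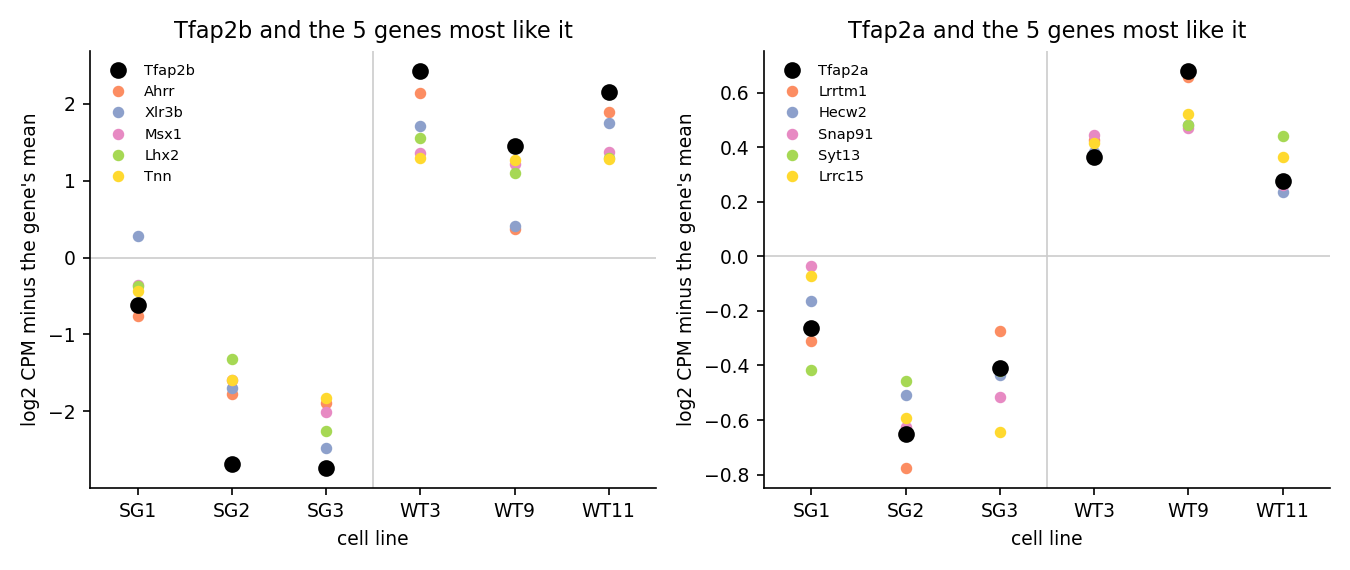
Log2 CPM minus each gene's mean over the 6 lines, for Tfap2b (left) and Tfap2a (right) in black and their 5 most similar genes in colour, with a vertical line between SG and WT lines. In both panels the SG values of the member lie below 0 and the WT values above, and Tfap2b lies below its 5 genes in SG2 and SG3.

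Around Tfap2a, Tfap2c and Tfap2e, 0 neighbouring genes were called by edgeR, and around Tfap2d 0 of 10 other genes, the AP-2 genes left out, were tested. Around Tfap2a, 4 of 14 genes within 500 kb were tested, with 1 unadjusted p under 0.05 and 1 call by DESeq2. The nearest tested gene, Gcnt2, a glycosyltransferase gene whose start is offset by -125.9 kb from that of Tfap2a, was at 15.5 ± 1.11 CPM in the SG lines and 19.8 ± 2.57 CPM in the WT lines (log2 fold change -0.36, SE 0.10, adjusted p = 0.132). Gcnt2 was the gene called by DESeq2 (adjusted p = 0.0292). Around Tfap2c 8 of 21 genes were tested, with 0 unadjusted p under 0.05 and 0 calls by DESeq2. Its nearest tested genes on either side, Gm14303 and Rae1, differed by -0.19 and -0.01 on the log2 scale (adjusted p = 0.691 and 0.893). Around Tfap2e 20 of 36 were tested, with 2 unadjusted p under 0.05 and 1 call by DESeq2. Its neighbours Ncdn and Psmb2 differed by -0.02 and 0.00 on the log2 scale (adjusted p = 0.871 and 0.978). Tfap2b lies 113.7 Mb from Mdm4, the edited gene, on the same chromosome.

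The 250 bases upstream of the annotated starts of the members that differed, 1 window for each, are shown because Tfap2a and Tfap2b fell in the same lines. They are from RefSeq (GRCm38.p6), 5′ to 3′ on the gene's strand, with CpG dinucleotides in capitals, and contain 0 bases of GENCODE exons:
Tfap2b, chr1:19211804-19212053, plus strand: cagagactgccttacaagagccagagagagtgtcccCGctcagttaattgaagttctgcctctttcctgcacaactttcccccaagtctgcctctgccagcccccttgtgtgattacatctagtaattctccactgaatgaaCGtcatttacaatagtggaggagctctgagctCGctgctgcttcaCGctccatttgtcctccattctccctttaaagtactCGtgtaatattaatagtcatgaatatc
Tfap2a, chr13:40734921-40735170, minus strand: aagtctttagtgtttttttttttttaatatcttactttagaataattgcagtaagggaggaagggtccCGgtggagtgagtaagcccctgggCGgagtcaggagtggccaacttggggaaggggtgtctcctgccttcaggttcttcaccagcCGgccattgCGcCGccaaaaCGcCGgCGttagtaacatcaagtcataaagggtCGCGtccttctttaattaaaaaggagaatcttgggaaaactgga
The Tfap2b window lies within the gene's bounds in the files, upstream of the start of a shorter transcript, and held 5 CpG at 46.4% GC. The Tfap2a window shown lies upstream of the bounds used for counting (to 40733823) but within those of GENCODE (to 40738376). It held 10 CpG at 47.6% GC. A second Tfap2a window in the table (chr13:40733796-40734045) held 10 CpG at 60.4% GC and is not shown, since 180 of its bases lie in GENCODE exons. The median promoter of the tested genes had 15 CpG and 59.6% GC, so all 3 windows were below it in CpG, and the second Tfap2a window was above it in GC. Tfap2a, Tfap2b, Tfap2d and Tfap2e had 7 such windows in the RefSeq table, and that of Tfap2c was not analysed here. The bases upstream of the outermost GENCODE starts of Tfap2b (19208914) and Tfap2a (40738376) were not in these windows and were not searched. The AP-2 motif GCCNNNGGC, which reads the same on both strands, was found in 0 of the 7 windows. It was found in 13.7% of all 32851 promoters and in 20.3% of those of tested genes. Among genes past the threshold it was in 37 of 173 promoters of those lower in SG and 30 of 140 of those higher, 21.4% in each case. Among the described targets it was in 9 of 23 promoters (of 19 genes), 39.1%. Of the targets that rose, Egfr, Hoxa2 and Igf1r had 0 matches, and Ret and Mmp2 had no promoter among those searched. The share was thus the same in genes that fell and genes that rose, and a match of these letters is a description, not a bound site.

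The depth and the identity of the cultures bear on these values. Total counts per line were 49317925 to 65457242, and 306 of 16068 genes passed the threshold (130 higher, 176 lower). That number was 3 without SG2, 24 without WT3 and 29 without WT11. Mdm4 transcripts were at 57.4 to 63.8 CPM in SG and 59 to 63.1 CPM in WT lines, and Trp53 transcripts at 70.9 to 72 and 69.2 to 73.1 CPM. Counts per whole gene do not show a substitution or which exons were read, so they check neither allele. Fibroblast markers were abundant, with the summed level of 10 markers at 2250 to 2630 RPKM in SG and 2490 to 2540 RPKM in WT lines. Of these 10, 1 fell (against 1.10% of all genes tested), Thy1, a surface glycoprotein gene (280 ± 25.5 CPM in SG, 460 ± 19 CPM in WT, adjusted p = 0.00802), and it was lost without SG2. DESeq2, which called 948 of all 16068 genes tested, called 3 of the 10 markers, and 3 had an unadjusted p under 0.05. The log2 fold change was below 0 in 8 of them and above 0 in 2.

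Other cell types in which AP-2 genes are active could also carry Tfap2a or Tfap2b, so their markers were counted in the same lines. Of 17 markers of surface ectoderm and keratinocytes 9 were tested and 0 passed by edgeR (4 with an unadjusted p under 0.05, 1 by DESeq2). Their sum was 30.5 to 51 RPKM in SG and 39.3 to 49.9 RPKM in WT lines, mostly the keratin genes Krt18 (log2 fold change 0.64, adjusted p = 0.307) and Krt19 (-0.42, adjusted p = 0.288), and the ranges overlapped. Krt5, a keratin of basal skin cells, had 162, 107 and 0 reads in the lines SG1 to SG3 and 0 in each WT line. Krt14 had 43, 96 and 18 reads in the SG lines and 8, 6 and 16 in the WT lines. Krt5 was thus read in 2 of the SG lines alone, and Krt14 in all 6 lines. The part of these cells in the differences was not tested.

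Markers of melanocytes and Schwann cells were at low levels, with 6 of 12 tested, 0 past the threshold (3 with an unadjusted p under 0.05, 1 by DESeq2) and Dct at 0 in every line. Their sum was 1.25 to 1.52 RPKM in SG and 1.45 to 2.12 RPKM in WT lines, and the most abundant were Mitf (log2 fold change -0.37, adjusted p = 0.282) and Ednrb (-1.80, adjusted p = 0.0878). Ednrb was the member called by DESeq2 (adjusted p = 0.000344). Of 10 trophoblast markers 3 were tested, and Cdx2, Elf5 and Tpbpa were at 0. The sum was 8.91 to 11.5 RPKM in SG and 11 to 15.3 RPKM in WT lines, and 1 member fell (against 1.10% of all genes tested), Eomes, a T-box gene (2.63 ± 0.794 CPM in SG, 6.36 ± 0.918 CPM in WT, adjusted p = 0.0335). Of 8 germ cell markers 3 were tested, and Prdm14 and Pou5f1 were at 0. Their sum was 0.753 to 0.987 RPKM in SG and 1.05 to 1.24 RPKM in WT lines, and 1 member fell (again against 1.10%), Prdm1, a transcriptional repressor of germ cells, limb and other tissues (0.693 ± 0.31 CPM in SG, 2.74 ± 0.612 CPM in WT, adjusted p = 0.0311). The calls of Eomes and Prdm1 were lost without SG2, WT3 or WT11, and that of Eomes also without SG3. The other markers of both lists had reads in at least 1 line. Gata3, a trophoblast and ectoderm factor, was at 18.9 ± 6.37 CPM in the SG lines and 29.6 ± 6.24 CPM in the WT lines (log2 fold change -0.64, adjusted p = 0.246). Gata2, the remaining tested trophoblast marker, went the other way, at 23.2 ± 2.82 and 18.5 ± 3.97 CPM (log2 fold change 0.33, adjusted p = 0.369). The genotypes overlapped in both. The germ cell genes Dnd1 and Ddx4 were at 1.01 ± 0.149 and 0.559 ± 0.249 CPM in the SG lines and 1.08 ± 0.174 and 0.339 ± 0.178 CPM in the WT lines. Gata2, Gata3, Dnd1 and Ddx4 were named after their values were seen. The part of these cell types in the differences was not tested.

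Neuron markers had 6 of 11 tested and 0 past the threshold (3 with an unadjusted p under 0.05, 2 by DESeq2), with Pou4f2 at 0 and a sum of 24.2 to 28 RPKM in SG and 26.6 to 30.3 RPKM in WT lines. Their most abundant members, Tubb3 and Stmn2, differed by -0.16 and 0.10 on the log2 scale (adjusted p = 0.257 and 0.932). Distal kidney markers had 1 of 6 tested, Slc12a1 (log2 fold change 1.10, adjusted p = 0.187, and below 0.05 unadjusted), 0 were past the threshold by edgeR or DESeq2, and Umod and Kcnj1 were at 0. Their sum was at most 0.185 RPKM in a line. Markers of cell types common in fibroblast cultures had sums that overlapped between genotypes. Smooth muscle and pericyte markers summed to 2440 to 2830 RPKM in SG and 2390 to 2920 RPKM in WT lines, with 0 of 7 past the threshold (2 with an unadjusted p under 0.05, 0 by DESeq2), and Acta2 and Tagln differed by -0.01 and 0.14 on the log2 scale (adjusted p = 0.983 and 0.353). Endothelial markers summed to 6.07 to 8.18 and 4.44 to 6.19 RPKM, with 0 of 4 tested past the threshold (1 with an unadjusted p under 0.05, 1 by DESeq2), Kdr among them at a log2 fold change of 0.39 (adjusted p = 0.24) and Emcn at 0.48 (adjusted p = 0.793). Kdr was the member called by DESeq2 (adjusted p = 0.0469). Macrophage and blood markers summed to 15 to 34.5 and 6.54 to 18.3 RPKM, with 0 of 6 past the threshold (0 with an unadjusted p under 0.05, 0 by DESeq2), Lyz2 among them at a log2 fold change of 0.73 (adjusted p = 0.561) and Cd68 at 0.56 (adjusted p = 0.388).

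The difference of both members kept its sign under each of the 13 alternatives run, which changed the scaling, the filter, the test or the lines used. Since every SG line lay below every WT line for both, leaving out lines could not have reversed the sign. Tfap2a ran from -0.99 to -0.76 on the log2 scale and Tfap2b from -5.17 to -3.45. Both extremes of Tfap2b came from leaving out lines, the largest fall without SG1 and WT9 and the smallest without SG2. SG1 and WT9 were the lines nearest to the other genotype in Tfap2b, so leaving them out enlarges its fall. Tfap2a was past the threshold in 8 and Tfap2b in 9 of the 13, counts that are again only a description.

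**Figure D5:**
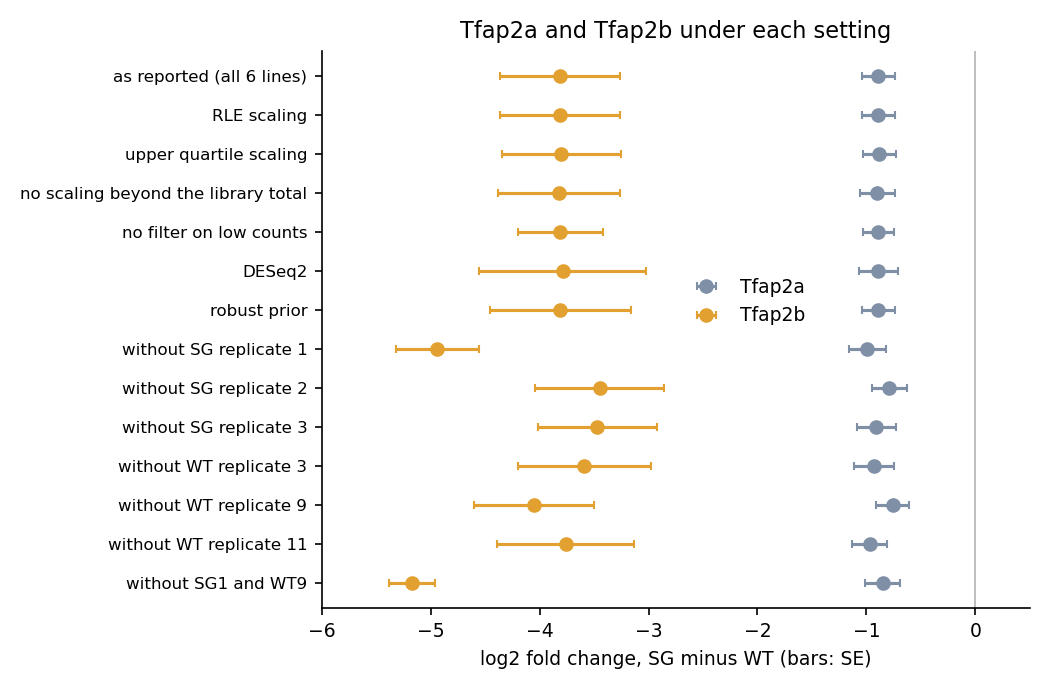
Log2 fold change (SG minus WT) of Tfap2a and Tfap2b in the reported fit (top row) and under each alternative, with bars of 1 SE. All points lie below 0, those of Tfap2a between -0.99 and -0.76, and Tfap2b lies lowest in both rows that leave out SG1.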

How the data were processed

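Poly(A)-selected mRNA of 3 SG and 3 WT lines was analysed, with groups and line numbers taken from the sample titles. The deposited files hold unnormalised counts of reads per gene. The tools named per the submitters' processing notes are Trimmomatic 0.36 (trimming), STAR 2.5.2b (alignment, GRCm38), featureCounts of Subread 1.5.2 (counting) and DESeq2. The sources used here do not give the strand setting or how multimapping reads were treated, and counts of overlapping or near-identical genes are uncertain. Symbols came from GENCODE M21, which named 48970 of 49315 identifiers, and 345 had none. There, 91.4% of matched genes had the files' start and end.

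Counts were filtered with filterByExpr (16068 genes left), scaled by TMM and tested with edgeR 4.0.16 in R 4.3.3 (quasi-likelihood test, 2-sided, no covariate, Benjamini-Hochberg over all genes tested, threshold 0.05). SE is the log2 fold change over the square root of F. RPKM used TMM-scaled libraries and the files' gene lengths. The code was tested on simulated counts. Alternatives were RLE, upper quartile and no scaling, no filter, a robust prior, DESeq2 1.42.0, each line left out, and SG1 and WT9 left out together. Sequences were handled with Biopython 1.88 in Python 3.11.15, and plots drawn with matplotlib 3.10.9.

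The members and the lists were chosen with earlier results of these data known. Named genes were the 5 members, at most 4 called genes from each list (or, where none passed, the 2 with the highest mean RPKM), the 5 genes most like each tested member (average log2 CPM of at least 0, prior count 2), and the nearest tested neighbours. A few others were named after their values were seen, among them described targets that did not pass, Krt5, Krt14 and Dct.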

Additional observations from a re-analysis of the deposited data

How the results depend on the processing

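No paired analysis was possible because SG and WT lines share 1 line number (3), which the labels do not tie to a litter or batch. The number of genes past the threshold was 306 as reported, 959 with no filter on low counts, 948 with DESeq2, 703 without SG1 and WT9, and 3 to 579 with 1 line left out. Other scalings gave 287 to 304 and the robust prior 235. The described AP-2 targets past the threshold were 5 as reported, 11 with no filter, 10 with DESeq2, 3 with the robust prior, and 0 to 6 with 1 line left out. The cofactors stayed at 0 in all 13 alternatives. The log2 fold change of Tfap2b was -4.94 to -3.45 with 1 line left out and -5.17 without SG1 and WT9, and that of Tfap2a -0.99 to -0.76. None of these alternatives reversed the sign of either, and those that left out lines could not, since the genotypes did not overlap. The median log2 fold change of all genes was -0.005 to 0.012 under the other scalings, against 0.002 as reported. The cause of these differences was not tested, and with 2 lines left in a genotype the spread rests on few lines. At 49317925 to 65457242 reads per line, Tfap2c, Tfap2d and Tfap2e were too low to compare.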
